A study of Homo sapiens with 3 samples.

Results

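Transfer RNAs that decode methionine, tryptophan, tyrosine, phenylalanine and cysteine were followed in an eCLIP experiment on DDX6. The members were chosen by name alone, as every identifier in the count tables that begins with tRNA-iMet, tRNA-Met, tRNA-Trp, tRNA-Tyr, tRNA-Phe or tRNA-Cys, with or without the prefix nmt. This gave 85 of 36817 identifiers, and 85 of the 434 tRNA names. They comprised 29 Cys-GCA, 18 Tyr-GTA, 13 Phe-GAA, 9 initiator Met (iMet-CAT), 8 Trp-CCA, 7 elongator Met (Met-CAT) names and 1 Tyr-ATA name, and 0 names carried the nmt prefix. The letters in a name are the anticodon, the first number is the isodecoder, a group of gene copies with the same mature sequence, and the last number is the gene copy. Gene copies are written below without the anticodon, so that iMet-1-1 stands for tRNA-iMet-CAT-1-1. Every library came from MOLM-13, an established human acute myeloid leukaemia cell line for which the labels give no treatment, so the results describe a single line. Ultraviolet light had fixed proteins to RNA in the living cells, and RNase I had shortened the RNA. The 2 immunoprecipitation (IP) libraries were made with a DDX6 antibody, and the 1 input library without an antibody.

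A tRNA carries an amino acid to the ribosome and pairs its anticodon with the codon of the mRNA. Methionine has separate tRNAs for initiation and elongation: the initiator is brought to the small ribosomal subunit by the factor eIF2 and reads the start codon, whereas the elongator is delivered by eEF1A and reads internal codons. Human tyrosine tRNA genes carry an intron that the TSEN endonuclease removes, and cytosolic phenylalanine tRNA carries the hypermodified base wybutosine beside its anticodon. DDX6 is an RNA helicase that holds back translation and acts in mRNA decapping, and P-bodies, granules in which cells store silenced mRNA, depend on it. Near-identical tRNA gene copies can share reads. How reads that match several copies were assigned, and whether counting used strand, is not given in the sources used here, so levels of single copies are uncertain and sums over a family are less exposed to this. Counts at a gene copy do not separate mature tRNA from its precursor.

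Depth was 4643494 reads in IP replicate 1, 1244213 in IP replicate 2 and 7807540 in the input, and values in threes below keep this order. Reads at tRNA names made up 2.56%, 5.18% and 1.19% of them. The members took 11003, 6193 and 14158 reads, which was 9.24%, 9.62% and 15.2% of the tRNA reads. All 10 myeloid leukaemia markers had at least 10 input reads, whereas 12 of 15 markers of T, B, erythroid, epithelial and fibroblast cells had 0. The labels do not say whether the IP libraries stem from separate cultures. Each p-value thus reflects the spread among these libraries alone. The libraries are bulk, so more cells with a bound tRNA and more bound tRNA per cell cannot be told apart. Intervals cover counting error only.

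Summed over gene copies, tryptophan tRNA was higher in the DDX6 IP than in the input and tyrosine tRNA was lower, while initiator Met, elongator Met, phenylalanine and cysteine tRNAs did not pass the test. The reads of each family were summed to a row and fitted with all genes by edgeR's quasi-likelihood test after TMM scaling. Calls were made where the adjusted p (Benjamini-Hochberg) was under 0.05. Of 6 families tested, 1 was called higher and 1 lower. Over all 10441 rows of this fit 14% were called higher and 11.4% lower, and among 43 other tRNA families 14 were called higher and 9 lower. Each call among the 6 families was lost under at least 1 other setting, as given below. Copies left out below were picked for having most IP or most input reads in these data. This choice favours a lower family fold without the copy with most IP reads and a higher one without the copy with most input reads. The p without such a copy is not a test. Scaling to library size alone moved the median log2 fold of all rows from -0.06 to 1.24, and then 5 of the 6 families were called higher and 0 lower, against 67.0% and 1.37% of all rows, so folds below are relative to the TMM scaling.

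**Figure D1:**
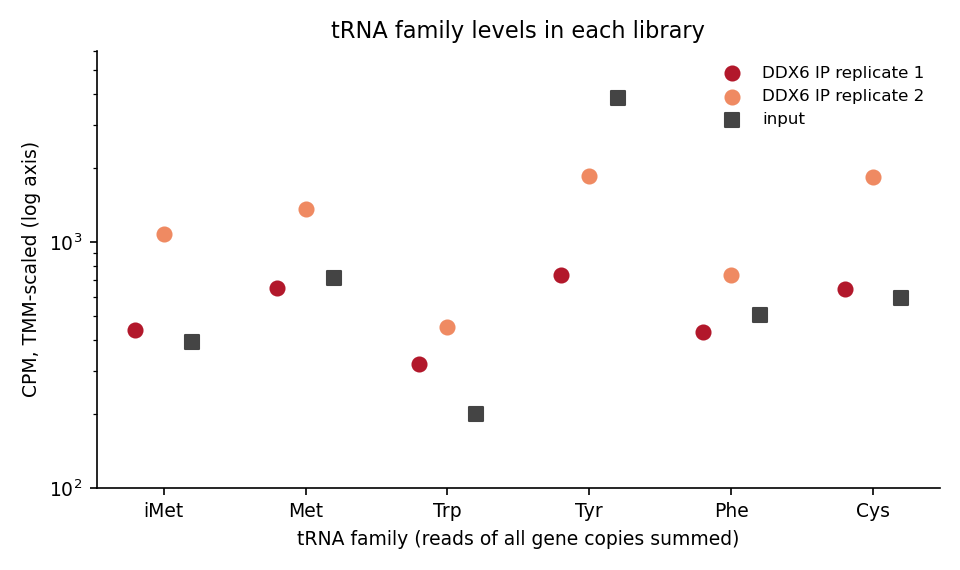
CPM (TMM-scaled, log axis) of the 6 tRNA families, with all gene copies of a family summed. Circles are the IP libraries and squares the input. The input lies below both IP libraries for iMet, Trp and Cys, above both for Tyr, and between them for Met and Phe. With scaling to library size alone, the fitted fold of Met and Phe also lies above the input.

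Initiator Met tRNA, which starts cytosolic protein chains, had 1500 reads in IP replicate 1, 910 in IP replicate 2 and 892 in the input. As TMM-scaled CPM these were 439, 1073 and 394. This scale rests on the exonic and tRNA reads of the tested rows, not on the depth given above. On it both IP libraries lay above the input, IP replicate 1 by little. As a share of all counted reads, IP replicate 1 stood at 2.83 times the input. The fitted log2 fold was 0.93 ± 0.42 (SE), with an unadjusted p of 0.039 and an edgeR adjusted p of 0.112, so the difference did not pass after adjustment. Of the 9 gene copies, all of which passed the read filter, iMet-1-1 held most IP reads, with 974, 503 and 142 reads. Its log2 fold was 2.79. It made up 64.9% and 55.3% of the initiator reads in the IP libraries and 15.9% in the input. Without this copy the family fold was -0.10 (edgeR adjusted p 0.888). The copy with most input reads was iMet-1-6, with 38, 26 and 222 reads and a log2 fold of -2.47. Without it the family fold was 1.30 (edgeR adjusted p 0.0295), a rise favoured by picking the copy for its input reads. The smallest fold belonged to iMet-2-1, the only copy of another isodecoder, with 16, 5 and 83 reads and a log2 fold of -2.85. The largest belonged to iMet-1-5, with 59, 57 and 2 reads, an IP to input ratio of 30.8 with a counting interval from 8.35 to 258.

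Elongator Met tRNA, which supplies methionine within the chain, had 2231, 1153 and 1623 reads, or 653, 1360 and 717 CPM. The input lay between the IP libraries. The fitted log2 fold was 0.48 ± 0.42 (SE), with an edgeR adjusted p of 0.418. As for the initiator, a single copy held most IP reads: Met-1-1 had 1469, 689 and 426 reads and a log2 fold of 1.71. Its share of elongator reads was 65.8% and 59.8% in the IP libraries and 26.2% in the input. Without Met-1-1 the family fold was -0.48 (edgeR adjusted p 0.379). Met-3-1 held most input reads and had the smallest fold, with 178, 98 and 535 reads and a log2 fold of -1.56. The largest fold was that of Met-2-1, a rare copy with 21, 15 and 3 reads, at an IP to input ratio of 6.38 with a counting interval from 2.02 to 32.4. Met-6-1, in an intron of FBXO31, had 159, 102 and 372 reads.

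Set against each other within a library, which needs no scaling, initiator reads were 40.2% of all Met tRNA reads in IP replicate 1 (95% Clopper-Pearson interval 38.6 to 41.8). They were 44.1% in IP replicate 2 (42.0 to 46.3) and 35.5% in the input (33.6 to 37.4). The initiator share was thus higher in both IP libraries than in the input, by more than counting error. On the log2 scale the ratio of initiator to elongator reads was 0.41 ± 0.16 higher in the IP (SD, n = 2). An exact two-sided permutation test over the 3 libraries gave p = 0.333, the smallest p that 2 libraries against 1 allow. The copies with most reads over the 3 libraries, iMet-1-1 and Met-1-1, were left out as an alternative. Both also held most IP reads of their kind. As given above, each had a larger share of its kind in the IP libraries than in the input. Leaving it out therefore lowers the IP side of its own kind. Without iMet-1-1 the difference in log2 ratio was -0.68, and the initiator share was 19.1%, 26.1% and 31.6%. Without Met-1-1 the difference was 1.40, and without both copies it was 0.31. Without both, the initiator share was 40.8% (38.1 to 43.6) in IP replicate 1, 46.7% (43.4 to 50.1) in IP replicate 2 and 38.5% (36.4 to 40.7) in the input. The intervals of IP replicate 1 and the input then overlapped.

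**Figure D2:**
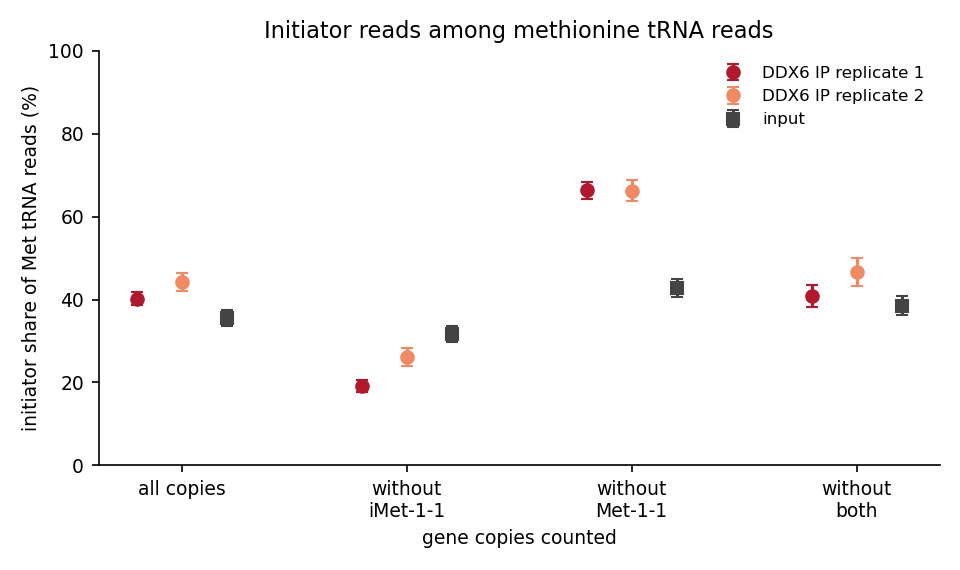
Initiator reads as a percentage of all Met tRNA reads in each library, with 95% Clopper-Pearson intervals, over all gene copies and after leaving out the most abundant IP copy of either kind or of both. Over all copies the IP shares of 40.2% and 44.1% lie above the input share of 35.5%, and without iMet-1-1 the order of IP and input is turned.

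Tryptophan tRNA, which decodes the single tryptophan codon UGG, had the fewest reads of the 6 families, with 1094, 384 and 452 reads. These were 320, 453 and 200 CPM, and both IP libraries lay above the input. The log2 fold was 0.94 ± 0.30 (SE), with an edgeR adjusted p of 0.0261. The log2 fold was 0.68 in IP replicate 1 and 1.18 in IP replicate 2. A pair of copies with few input reads stood out. Trp-3-2 had 420, 112 and 16 reads, and its log2 fold was 4.16. Trp-4-1 had 271, 122 and 6 reads, and its log2 fold was 5.32. The copy with most input reads, Trp-2-1, had 353, 126 and 346 reads and a log2 fold of -0.30. It made up 76.5% of the tryptophan tRNA reads in the input and 32.3% and 32.8% in the IP libraries. The smallest fold was that of Trp-3-3, with 23, 10 and 35 reads and a log2 fold of -0.88. Both of these folds turned positive with scaling to library size alone, at 0.98 for Trp-2-1 and 0.41 for Trp-3-3. Without Trp-2-1, the copy with most input reads, the family fold was 2.46 (edgeR adjusted p 1.05e-05). This rise was favoured by picking the copy for its input reads, so the p is not a test. The call was lost without Trp-3-2, the copy with most IP reads (log2 fold 0.41, edgeR adjusted p 0.325), with DESeq2 (adjusted p 0.0833) and with scaling to the tRNA reads (edgeR adjusted p 0.492).

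Tyrosine tRNA, whose genes carry introns, moved the other way. It had 2503, 1569 and 8701 reads, or 732, 1851 and 3842 CPM, and both IP libraries lay below the input. The log2 fold was -1.58 ± 0.47 (SE), with an edgeR adjusted p of 0.0178. Tyrosine tRNA made up 2.10% (2.02 to 2.18) and 2.44% (2.32 to 2.56) of the tRNA reads in the IP libraries and 9.35% (9.17 to 9.54) in the input. Among the 6 families it was the only one whose share of tRNA reads was below the input in both IP libraries. Without IP replicate 2 the log2 fold was -2.33 and without IP replicate 1 it was -1.05. Much of the input signal came from Tyr-5-1, on chromosome 8, with 573, 272 and 4945 reads and a log2 fold of -3.18. Without Tyr-5-1 the family fold was -0.67 (edgeR adjusted p 0.298), and without Tyr-2-1, the copy with most IP reads, it was -1.78 (edgeR adjusted p 0.00591). The direction of both changes was favoured by how the copies were picked. The call was also lost with DESeq2 (log2 fold -1.54, adjusted p 0.409) and with scaling to library size alone (log2 fold -0.31, edgeR adjusted p 0.526).

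Tyrosine gene copies lay on both sides of the input. Tyr-5-5 had 107, 61 and 1074 reads, with a log2 fold of -3.30, and Tyr-5-4 had 144, 72 and 752 reads, with a log2 fold of -2.46. The smallest fold was that of Tyr-6-1, at -3.48, with 29, 8 and 223 reads. On the other side, Tyr-8-1 had 253, 156 and 2 reads, an IP to input ratio of 109 with a counting interval from 29.9 to 901. Tyr-5-2 had 316, 116 and 68 reads, with a log2 fold of 1.90. Tyr-2-1, with 520, 399 and 1088 reads, held most tyrosine tRNA reads over the 2 IP libraries. Tyr-4-1, with 4, 3 and 70 reads, was not tested, and neither was the Tyr-ATA copy, with 0, 0 and 1 reads.

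Phenylalanine tRNA had 1470, 622 and 1143 reads, or 430, 734 and 505 CPM, with the input between the IP libraries. The log2 fold was 0.20 ± 0.35 (SE), with an edgeR adjusted p of 0.718, and with scaling to the tRNA reads it was -0.16. Phe-1-4 had 779, 357 and 142 reads and a log2 fold of 2.35. It made up 53.0% and 57.4% of the phenylalanine tRNA reads in the IP libraries and 12.4% of those in the input. Without this copy the family log2 fold was -0.80 (edgeR adjusted p 0.0496). The copy was picked for its IP reads, so a drop was favoured and the p is not a test. Phe-2-1 held most input reads, with 366, 103 and 339 reads and a log2 fold of -0.40, which was 0.89 with scaling to library size alone. Phe-3-1 had the smallest fold, -2.60, with 51, 22 and 256 reads.

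Cysteine tRNA had 2205, 1555 and 1346 reads, or 645, 1834 and 594 CPM. On this TMM scale both IP libraries lay above the input, IP replicate 1 by little. As a share of all counted reads, IP replicate 1 stood at 2.75 times the input. The log2 fold was 1.06 ± 0.48 (SE), with an edgeR adjusted p of 0.115. This family had the most names, yet 10 of 29 passed the read filter. Cys-4-1 held most IP reads, with 1310, 806 and 262 reads and a log2 fold of 2.51. Without it the family fold was 0.24 (edgeR adjusted p 0.736). Cys-3-1 had 282, 221 and 3 reads, an IP to input ratio of 89.1 with a counting interval from 30.3 to 434. Cys-2-2 held most input reads, with 148, 178 and 266 reads and a log2 fold of 0.02, which was -0.53 with scaling to the tRNA reads. The smallest fold was that of Cys-2-4, at -1.45, with 90, 36 and 201 reads.

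Of the 85 gene copies, 47 reached 10 reads in 2 or more libraries and were tested, and 38 were not. Of the 47, 7 passed the filter through the IP libraries while their input reads were under 10. When each copy was fitted as its own row, edgeR called 0 members, and also 0.0% of all 10700 rows in either direction. The smallest adjusted p of this fit was 0.0805. At an unadjusted p under 0.05, 11 members were higher and 9 lower, against 1668 and 1497 of all rows. DESeq2 on the same rows called 10 members higher and 7 lower and gave no adjusted p for 3, against 4.35% and 1.78% of all rows. Of the 10 called higher, 5 had under 10 input reads and so had passed the filter through the IP libraries alone. Among 261 other tRNA copies DESeq2 called 53 higher and 42 lower. Scaling to library size alone gave 26 members higher and 7 lower, against 64.8% and 1.7% of all rows. Scaling to the tRNA reads gave 10 higher and 11 lower, against 20.5% and 32.1% of the 308 tRNA rows.

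The copies that DESeq2 called higher were iMet-1-1, iMet-1-5, iMet-1-7, Met-1-1, Trp-3-2, Trp-4-1, Tyr-5-2, Tyr-8-1, Phe-1-4 and Cys-3-1. Those called lower were iMet-1-6, iMet-2-1, Tyr-5-1, Tyr-5-4, Tyr-5-5, Tyr-6-1 and Phe-3-1. The DESeq2 adjusted p ranged from 1.19e-09 for Trp-3-2 to 0.0357 for iMet-2-1. Members of each direction occurred within the initiator, tyrosine and phenylalanine families. The median log2 fold over the 47 members was -0.30, against -0.06 over all rows.

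**Figure D3:**
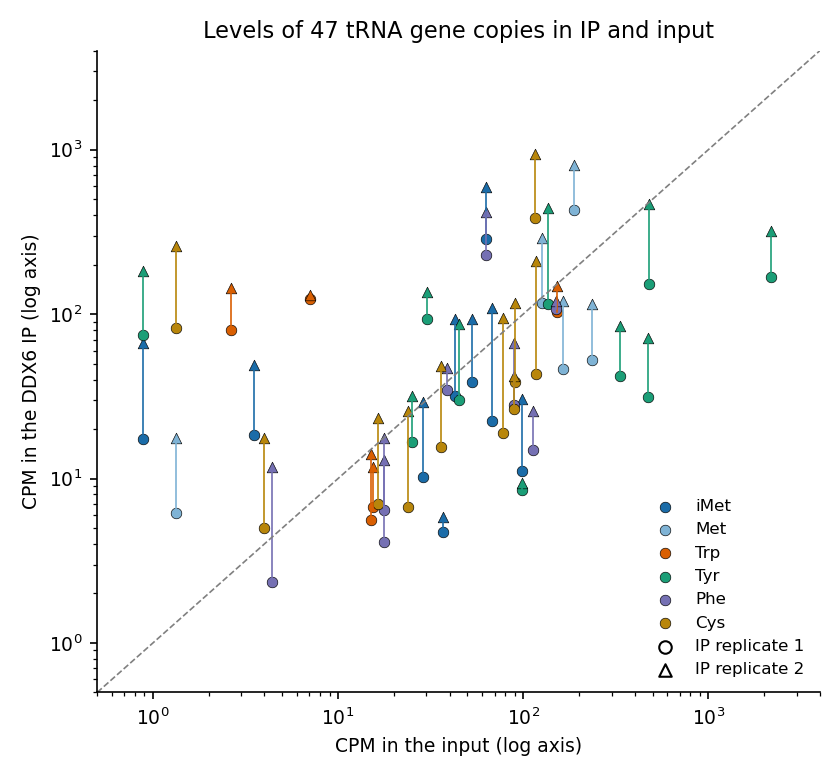
CPM of the 47 tested gene copies in the input (horizontal, log axis) and in the IP libraries (vertical, log axis). Circles are IP replicate 1, triangles IP replicate 2, a line joins both values of a copy, colours are families, and the dashed line marks equal levels. Every triangle lies above its circle, and copies of the same family lie on both sides of the dashed line.

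The IP libraries differed from each other in overall tRNA level. All 47 tested members were higher in IP replicate 2 than in IP replicate 1, with a median gap of 1.30 on the log2 scale and a range from 0.09 to 2.28. The median gap was 1.21 over the other tRNA copies and 0.00 over all rows. The order of copies was nonetheless alike in both: across the 47 members, log2 CPM had a Pearson r of 0.95 and a Spearman rho of 0.96, a description across genes that are not independent replicates.

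Within each family the IP libraries shared a mix of gene copies that differed from the mix in the input. The overlap of copy shares, summed as the smaller share of each copy in a pair of libraries, was 86.1% to 93.6% between the IP libraries over the 6 families. Against the input it was 41.2% to 59.2% for IP replicate 1 and 43.4% to 61.4% for IP replicate 2. In all 6 families the IP pair overlapped most. The same held in 35 of 38 other tRNA families with at least 100 reads, where the median overlap was 92.1% between the IP libraries and 63.8% and 63.1% against the input. The same pattern was thus present in other tRNAs. With 1 input library there was no pair of inputs to compare. A trait of that library and a difference between IP and input therefore cannot be told apart here.

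**Figure D4:**
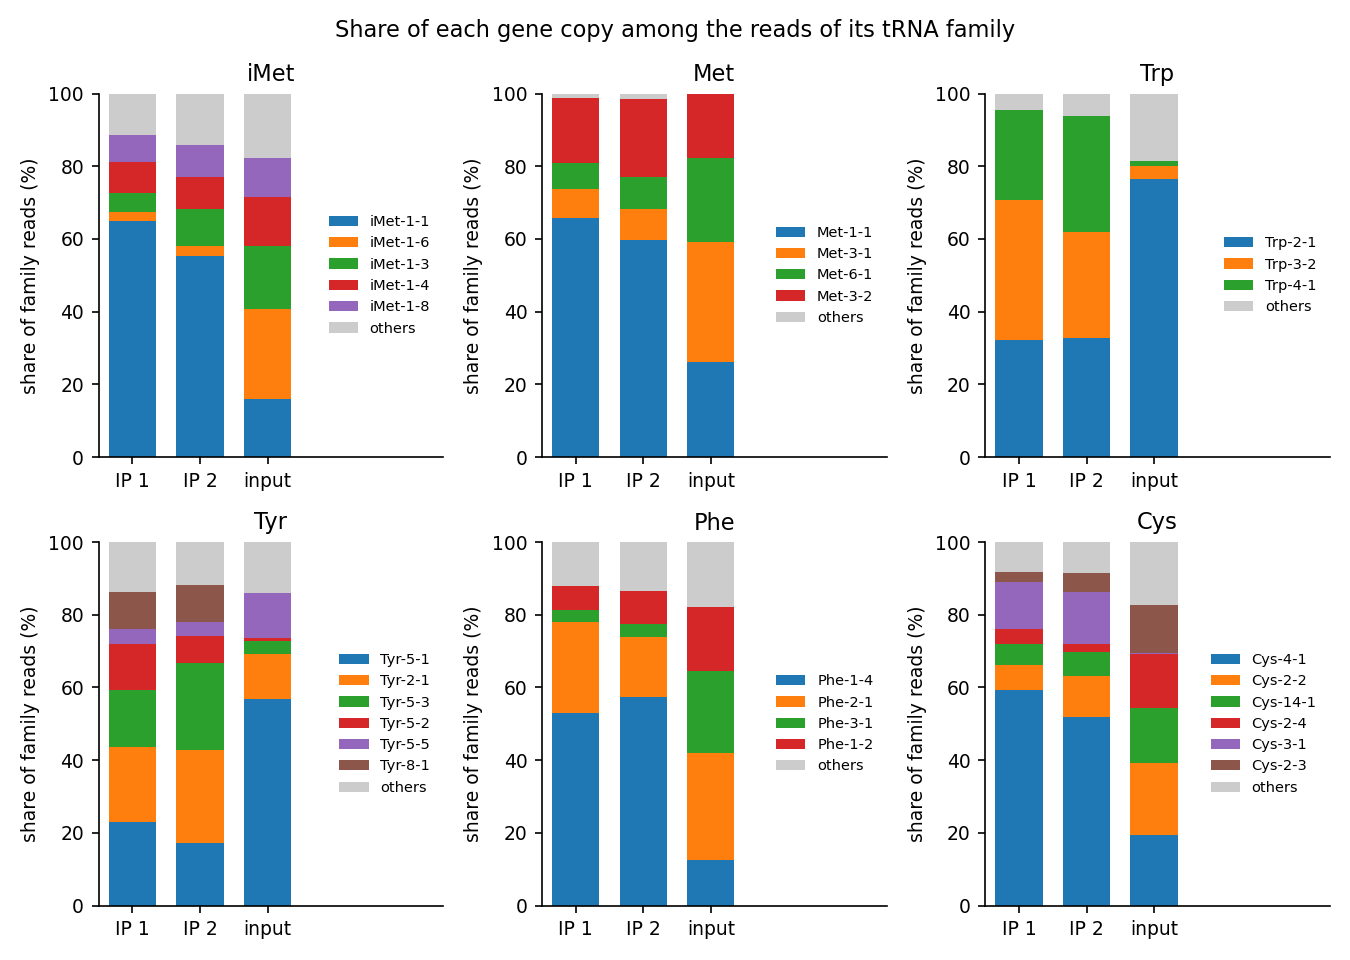
Share of each gene copy among the reads of its family (percent, bars from 0 to 100) in the 3 libraries, with copies that reach 10% in any library coloured and the others grey. The left pair of bars in each panel, the IP libraries, resemble each other more than either resembles the input: iMet-1-1 has 64.9% and 55.3% of the IP reads of its family but 15.9% of the input reads.

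Copies of an isodecoder share their mature sequence, yet their folds differed widely. In 6 isodecoders at least 2 copies were tested. The log2 folds within iMet-1, with 8 copies, ran from -2.47 at iMet-1-6 to 2.79 at iMet-1-1, leaving aside iMet-1-5 and iMet-1-7, whose input reads were 2 and 8. Those of the 5 copies of Tyr-5 ran from -3.30 to 1.90. Phe-1, with 6 copies, spanned -1.37 to 2.35, and Trp-3, with 2 tested copies, spanned -0.88 to 4.16. Met-3 spanned -1.56 to 0.66 and Cys-2 spanned -1.45 to 0.02. When copies were summed per isodecoder, 27 of 60 isodecoders were tested, and edgeR called 6 higher and 4 lower, against 10.3% and 7.88% of all rows. Among those called higher, Tyr-8, Cys-3 and Trp-4 had 2, 3 and 6 input reads, and so had passed the filter through the IP libraries alone. Summed, Tyr-5 had a log2 fold of -2.07 (edgeR adjusted p 0.02), Trp-3 had 2.27 (edgeR adjusted p 0.00311) and iMet-1 had 1.06 (edgeR adjusted p 0.168).

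**Figure D5:**
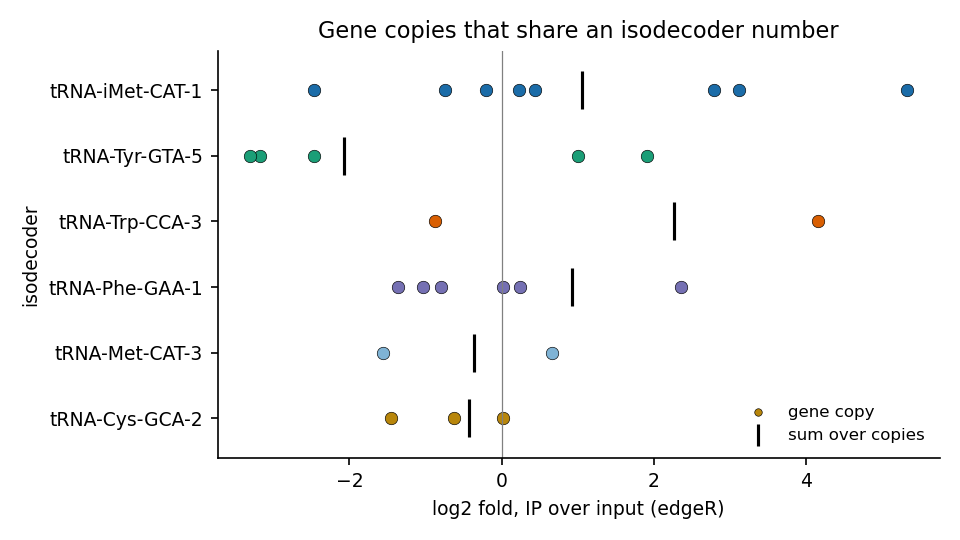
Log2 fold of IP over input (edgeR) for each tested gene copy of the 6 isodecoders with at least 2 tested copies. Points are gene copies and black bars the sum over the copies of an isodecoder. Copies of iMet-1 lie on both sides of their sum of 1.06, the rightmost (iMet-1-5) having 2 input reads, and copies of Tyr-5 from -3.30 to 1.90 around a sum of -2.07.

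The authors called peaks in each IP library against the input on build hg19, and the height of a peak is their log2 fold. At members they listed 23 peaks in IP replicate 1, at 10 gene copies, and 22 in IP replicate 2, at 9 copies. Counting peaks with a log2 fold of at least 3 and a -log10 p of at least 3, there was 1 in IP replicate 1 and 4 in IP replicate 2, against 30 of 133 and 57 of 117 peaks at any tRNA. Cys-3-1, on the minus strand of chromosome 7 in an intron of the non-coding gene ZNF767P, held 4 of these 5 peaks. In IP replicate 1 its peak ran from 149286160 to 149286200 with a log2 fold of 5.34, and in IP replicate 2 it lay in 3 pieces from 149286156 to 149286200 with log2 folds of 8.43 to 8.98. Intronic reads of ZNF767P were 247 and 55 in the IP libraries and 1040 in the input, and their part in the peak was not tested. Tyr-5-2, on the plus strand of chromosome 8 in an intron of ENSG00000253190, held the remaining peak, from 67026263 to 67026287, with a log2 fold of 3.30. The authors' reproducible list of 1587 peaks holds 4 at members, 3 at Cys-3-1 with log2 folds of 6.89 to 7.14 and 1 at Tyr-5-2 with 3.03. At Tyr-5-1, in an exon of the same host as Tyr-5-2, all listed peaks had negative log2 folds, from -2.83 to -1.56. No initiator or phenylalanine copy held a peak. Every tRNA peak in these lists, 133 in IP replicate 1 and 117 in IP replicate 2, also overlapped another annotation, so the lists cover tRNA genes inside other genes and say nothing of the rest.

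Among 67 nuclear-encoded partners of these tRNAs on a fixed list (synthetases, delivery factors, splicing, end-processing and modification enzymes), 65 were tested on exonic reads. The fit with each tRNA copy as a row called 0 of them, as it did of all rows. At an unadjusted edgeR p under 0.05 there were 15, against 1668 higher and 1497 lower of all 10700 rows. DESeq2 called 1, EIF1, as higher, against 4.35% of all rows higher and 1.78% lower. In the family fit, chosen after seeing the data and with the same rows for these genes, 8 were higher and 7 lower, against the 14% and 11.4% of all rows given above. Their median log2 fold was -0.12, against -0.06 over all rows. The values that follow are from the family fit.

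Of 11 genes for delivery of the initiator, 2 were higher and 2 lower. EIF1, which guards the choice of start codon, had 3203, 609 and 600 reads and a log2 fold of 1.65 (edgeR adjusted p 0.00228). DENR, a reinitiation factor, had 289, 47 and 320 reads and a log2 fold of -0.95 (edgeR adjusted p 0.0105). Of 4 genes for delivery of elongator tRNAs, 0 were higher and 2 lower, among them EEF1D, a subunit of the exchange factor of eEF1A, with 514, 179 and 891 reads and a log2 fold of -1.14 (edgeR adjusted p 0.00323). The direction of DENR and EEF1D turned with scaling to library size alone, to 0.33 and 0.15 in the fit with each copy as a row.

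None of the 6 cytosolic synthetases and none of the 4 tested mitochondrial ones was called. The cytosolic ones with the smallest p were WARS1, for tryptophan, at -0.59, and CARS1, for cysteine, at 0.77. Of 11 splicing genes, 1 was higher and 1 lower: CLP1, an RNA kinase of the TSEN complex, at 1.16 (edgeR adjusted p 0.04), and TSEN15, a TSEN subunit, at -1.16 (edgeR adjusted p 0.0189). TSEN15 turned to 0.13 with scaling to library size alone. Of 6 genes for end processing, POP1, a subunit of RNase P, was higher, at 0.94 (edgeR adjusted p 0.041), but turned to -0.32 with intronic reads added. Among 23 tested modification genes, 4 were higher and 2 lower. DUS1L, a dihydrouridine synthase, had 44, 14 and 110 reads and a log2 fold of -1.79 (edgeR adjusted p 0.00108). LCMT2 and TRMT5, which both act in the making of wybutosine in phenylalanine tRNA, had 119, 34 and 31 reads and 201, 49 and 63 reads. Their log2 folds were 1.42 (edgeR adjusted p 0.00999) and 1.07 (edgeR adjusted p 0.0175). The other listed wybutosine genes were not called: TYW1 stood at 0.70, TRMT12 at -0.14, TYW3 at -0.05 and TYW5 at -0.66.

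Of 5 mitochondrially encoded counterparts 3 were tested, and all 3 were higher in the family fit. MT-TF, for phenylalanine, had 3664, 1160 and 42 reads and a log2 fold of 6.03 (edgeR adjusted p 1.35e-07). MT-TM, for methionine, had 312, 89 and 8 reads and a log2 fold of 4.76 (edgeR adjusted p 2.66e-07). It had passed the read filter through the IP libraries alone. MT-TY, for tyrosine, had 307, 88 and 28 reads and a log2 fold of 2.95 (edgeR adjusted p 6.2e-06). Both IP libraries lay far above the input at each of them. DESeq2 also called all 3 higher, while in the fit with each nuclear copy as a row their edgeR adjusted p was 0.0805. MT-TC, for cysteine, had 17, 1 and 4 reads and was not tested, and no identifier was matched to MT-TW, for tryptophan. Mitochondrial RNA is transcribed from both strands as long precursors, and these counts do not separate tRNA from precursor reads or from the opposite strand.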

How the data were processed

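DDX6 eCLIP of MOLM-13 cells gave 2 IP libraries and 1 input. Build hg19 was used with cutadapt, UMI-tools, SAMtools and STAR, per the submitters' processing notes. The counter, the peak caller and every tool version were not given in the sources used here. Raw read counts per identifier and transcript region were deposited by the authors. The authors' deposited peak lists give a -log10 p and a log2 fold of IP over input.

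The tRNA reads of each tRNA name and the exonic reads of each gene were fitted together, with names kept apart, summed per isodecoder or summed per family. Rows with at least 10 reads in at least 2 libraries were tested with edgeR 4.0.16 (glmQLFit, glmQLFTest, TMM) in R 4.3.3. DESeq2 1.42.0 was an alternative. The spread came from the 2 IP libraries, with the lone input assumed to vary like them. The common dispersion was 0.0427 with prior degrees of freedom of 3.00 when copies were rows, and 0.0314 with 19.8 when families were rows. CPM values are TMM-scaled over the exonic and tRNA reads of the tested rows, not over all counted reads. Log2 folds per library used a prior count of 2. Copies with 1 to 3 input reads were given an IP to input ratio, over summed IP reads, with a 95% counting interval. In data simulated for the fit with copies as rows (10430 rows), 3.03% of 2-fold and 73.4% of 4-fold changes were recovered, and 2 of 74 calls were false. The simulation gave every row the common dispersion and no gap between the IP libraries. These shares therefore do not give the power of the real fit with copies as rows, which called 0 of 10700 rows.

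The members and lists were chosen with earlier results of these data known. The rule named each family, its copies with most input reads and with the largest and smallest fold, and up to 3 genes per role of the partner list. Other copies (those with most IP reads, those called by DESeq2, the ends of each isodecoder, and Met-6-1 and Tyr-4-1) were named after their values were seen. Sequences were not used here. Alternatives were other scalings, filters, tools and sums, and leaving out libraries or copies.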

Additional observations from a re-analysis of the deposited data

How the results depend on the processing

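No paired analysis was possible because the input carries no replicate number and the groups share fewer than 2 numbers. Leaving out an IP library left no residual spread, so it gave values without a test. Those log2 folds ran from 0.22 to 1.44 for initiator Met, -0.07 to 0.92 for elongator Met, 0.74 to 1.18 for Trp, -2.33 to -1.05 for Tyr, -0.17 to 0.54 for Phe and 0.18 to 1.62 for Cys, and the initiator to elongator difference from 0.29 to 0.52. Low read numbers in the input limit the folds of copies, and the cause of the changes below was not tested.

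With copies as rows, 0 members were called. The members called higher and lower were 26 and 7 with scaling to library size alone (64.8% and 1.7% of all rows), 10 and 7 with DESeq2 (4.35% and 1.78%), and 13 and 11 with every row of at least 1 read (4.53% and 3.45%). They were 11 and 7 with a filter of 30 reads (10.9% and 8.4%) and 10 and 11 with scaling to the tRNA reads (20.5% and 32.1%). They were 21 and 7 with intronic reads added (17.1% and 15.3%), and 6 and 4 when isodecoders were summed (10.3% and 7.88%). The tRNA names held no intronic reads, so adding such reads changed only the rows of other genes, and through them the scaling and the spread. Of the partner list, mitochondrial tRNAs included, 0 were called. The numbers higher and lower were 42 and 0 with scaling to library size, 4 and 0 with DESeq2, 8 and 4 without the filter, 6 and 3 with a filter of 30 reads and 11 and 7 in the family fit (14% and 11.4% of all rows, the other shares being those just given).

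Scaling to library size alone gave family log2 folds of 2.20 for initiator Met, 1.75 for elongator Met, 1.47 for Phe and 2.32 for Cys, all now called, and -0.31 for Tyr, no longer called. Adding the intronic reads of other genes, which left the tRNA counts as they were, gave 2.15, 1.71, 1.42 and 2.27, all called. Tyr was then at -0.36, not called. The Trp call was lost with DESeq2 (0.99), without the filter (1.0), with a filter of 30 reads (0.92), with scaling to the tRNA reads (0.64) and without Trp-3-2 (0.41). The Tyr call was lost with DESeq2 (-1.54), with a filter of 30 reads (-1.59) and without Tyr-5-1 (-0.67). Initiator Met was called without iMet-1-6 (1.30) and turned to -0.10 without iMet-1-1. Elongator Met turned to -0.48 without Met-1-1, and Phe to -0.80 without Phe-1-4 and to -0.16 with scaling to the tRNA reads. The initiator to elongator difference turned to -0.68 without iMet-1-1. Leaving out copies, except iMet-1-1 and Met-1-1 together, and the family fit for the partner list, were chosen after seeing the data. The copies left out were those with most IP or most input reads, so the direction of each such change was favoured by the choice.

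As ratios of IP to input in the share of all counted reads, in place of tRNA reads, the families stood at 4.61 (initiator Met), 3.38 (elongator Met), 4.70 (Trp), 0.808 (Tyr), 2.79 (Phe) and 5.00 (Cys), means over IP libraries that differed. In IP replicates 1 and 2 they were 2.83 and 6.4, 2.31 and 4.46, 4.07 and 5.33, 0.484 and 1.13, 2.16 and 3.41, and 2.75 and 7.25 in the same order, so that for Tyr the libraries lay on opposite sides of 1. Peaks with any positive log2 fold and the same p numbered 7 and 16 in IP replicates 1 and 2.

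Among named copies and genes, Cys-2-2 turned to -1.36 and Met-3-2 to -0.05 without IP replicate 2, and 28 log2 folds turned direction under the other settings. With scaling to library size alone they were 0.98 for Trp-2-1, 0.41 for Trp-3-3, 0.89 for Phe-2-1, 0.61 for Tyr-2-1, 0.70 for WARS1, 0.49 for CARS2, 0.33 for DENR, 0.39 for EIF2D, 0.15 for EEF1D, 0.54 for EEF1G, 0.42 for EEF1A1, 0.13 for TSEN15, 0.72 for RTRAF, 0.47 for RPP30 and 0.78 for TRNT1. With intronic reads added they were 0.93 for Trp-2-1, 0.36 for Trp-3-3, 0.84 for Phe-2-1, 0.55 for Tyr-2-1, -0.23 for CARS1, -0.50 for FARSB, -1.72 for FARS2, -0.31 for YARS2, 0.31 for EEF1G, 0.35 for EEF1A1, 0.10 for RTRAF and -0.32 for POP1. With scaling to the tRNA reads Cys-2-2 was at -0.53.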
